A study of Bos taurus with 4 samples.

Results

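Tac1 encodes preprotachykinin A, the protein precursor of the neuropeptides substance P and neurokinin A. Of 35960 library clones on the array, 2 carried the symbol Tac1 in the platform annotation, and they are described here clone by clone, array by array and channel by channel. Tac1 was chosen by its log2 ratio in this comparison, so its values are a description and carry no test.

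The cells were chromaffin cells of cattle (Bos taurus), which release adrenaline and noradrenaline from the adrenal gland, although the tissue entry in the labels reads brain. Treated cells received the peptide PACAP, short for pituitary adenylate cyclase-activating polypeptide, whose receptors raise cyclic AMP, at 100 ng/ml for 6 h at 37 C, and the labels list no treatment for the control cells. For each of 4 biological repeats, 1 array printed with mouse cDNA clones received PACAP RNA labelled with Cy5 and control RNA labelled with Cy3. The dyes were not swapped on any array, so a dye preference of a clone is part of its ratio, and mouse clones can bind cattle RNA less well where the sequences differ. The labels name no animals, so the spread between arrays may be smaller than that between animals.

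Tachykinins are cut from their precursors in secretory granules by prohormone convertases and carboxypeptidases, and their carboxyl ends are then amidated. Substance P acts mainly on the neurokinin 1 receptor, which couples to Gq proteins and phospholipase C, and it is removed outside the cell by peptidases such as neprilysin. In the adrenal medulla, substance P is known as a peptide of the splanchnic nerve that modulates the nicotinic response of chromaffin cells, and transcription of Tac1 is known to respond to cyclic AMP in neurons.

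The 2 Tac1 clones came from different plates and were printed in different blocks of the array, each as a single spot. Clone AI850769 (plate position BMAPI20B18) bears the title tachykinin 1 in the scanner tables, the same gene as its symbol. Clone AI846166 (plate position BMAPI15K19) bears the title of an expressed sequence tag moderately similar to a calcium channel subunit, which contradicts its symbol. The annotation names each clone Tac1 through another sequence tag, BE862926 for AI850769 and BE653000 for AI846166. The conflict with its title leaves the identity of AI846166 uncertain, and every value of AI846166 below carries that doubt. Plate positions linked the annotation to the spots. The deposited log2 values of the 2 entries were compared with those recomputed from the spots. The largest difference on any array was 0.0048 (AI850769) and 0.0096 (AI846166) log2 units. The link itself was made from such values and kept only where the median difference was under 0.1. Close values were thus partly a condition of the link and no separate check.

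In the PACAP channel, both clones gave clear signals on every array. For AI850769 the signal above local background was 541.5, 548.1, 261.5 and 382.2 scanner units on repeats 1 to 4. For AI846166 it was 444.3, 722.8, 213.4 and 251.0. Each PACAP signal was above 2 SD of the local background, the limit used here for a measured signal. The signals were 3.81 to 35.1 times that SD, and repeat 4 had the lowest multiple for both clones. Each was brighter than at least 99.1% of the 768 blank spots of its array.

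In the control channel, both clones were dim. AI850769 had 167.2, 105.6, 74.3 and 269.2 scanner units on repeats 1 to 4, against limits of 219.6, 244.8, 141.4 and 112.0. AI846166 had 69.7, 74.5, 1.0 and 170.5, against limits of 128.4, 260.2, 202.2 and 90.6. The control signal was therefore above its limit only on repeat 4, for both clones, and was not well above background on the other 3 arrays. In the control channel, 10.9 to 13.3% of blank spots passed the same limit, with 12.5% on repeat 4. On repeat 4 the control signal was brighter than 94.5% of blank spots for AI846166 and 99.0% for AI850769. The value of 1.0 for AI846166 on repeat 3 is the floor of the deposited signal. Apart from that spot, the control signals were brighter than 85.7 to 99.0% of blank spots, so a low control signal may be present on repeats 1 to 3 without being measurable there.

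**Figure D1:**
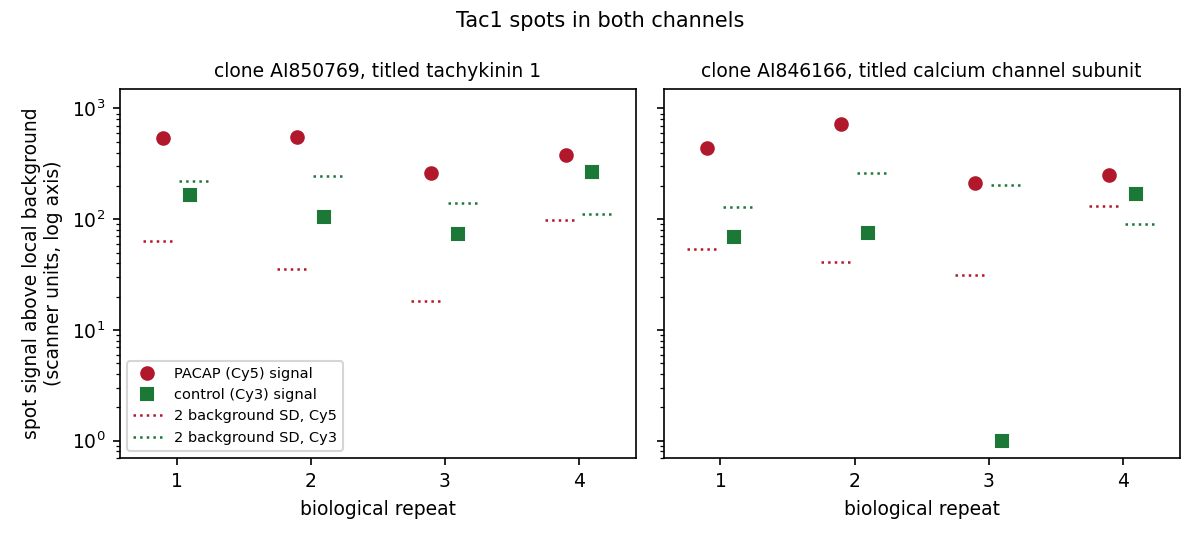
Spot signal above local background in scanner units (log axis) for both Tac1 clones by biological repeat, with PACAP RNA (Cy5) as circles, control RNA (Cy3) as squares and 2 SD of the local background as dotted lines. Every circle lies above its line, and the squares do so only on repeat 4; the square of AI846166 on repeat 3 is at the floor of 1.0.

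After loess normalisation within each array, both clones were higher with PACAP on every array. AI850769 had log2 ratios of PACAP over control of 1.29, 1.99, 1.97 and 1.64 on repeats 1 to 4, a mean of 1.72 ± 0.33 (SD, n = 4), or 3.30-fold. AI846166 had 2.44, 2.93, 4.11 and 1.68, a mean of 2.79 ± 1.02 (SD, n = 4), or 6.91-fold. Across all tested clones 9.59% were higher on all 4 arrays, 8.25% were lower on all 4, and 0.607% were higher on all 4 with a mean above 1. Since Tac1 was chosen in this contrast, nothing is read from its count of 2 of 2. The clones entered the fit through their PACAP signal: a clone needed a signal above 2 background SD in either channel on at least 3 arrays, and the control channel alone would not have met that.

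The 2 clones differed in size on repeats 1 to 3 and lay close together on repeat 4. AI846166 minus AI850769 was 1.15, 0.94, 2.14 and 0.04 log2 units on repeats 1 to 4. Repeat 4 is the array on which both channels of both clones were above the limit of 2 background SD, and there the ratios were 1.64 and 1.68. Repeat 3 had the largest gap, and there the control value of AI846166 stood at the floor, so that its ratio of 4.11 depends on the floor chosen. Both clones measure the same 4 pairs of RNA and are not replicates of the treatment.

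When dim control spots were raised to the limit of a measured signal, the ratios became smaller. With both channels raised to at least 2 background SD of the spot, AI850769 had 0.83, 0.47, 0.79 and 1.64, a mean of 0.93 ± 0.50 (SD, n = 4), still above 0 on all 4 arrays. AI846166 then had 1.61, 0.58, -0.15 and 1.67, a mean of 0.93 ± 0.88 (SD, n = 4), and was higher on 3 arrays. The value of -0.15 was on repeat 3, where the control limit of 202.2 was close to the PACAP signal of 213.4. The size of the Tac1 ratio is thus uncertain on repeats 1 to 3, and repeat 4 was little changed by this floor, at 1.64 and 1.67. The ratios on repeat 4 depend on the normalisation, however. Before loess they were 0.51 for AI850769 and 0.56 for AI846166. The loess curve, which is subtracted, stood at -1.14 and -1.12 for these spots. Their deposited quality scores on repeat 4 were 0.6 and 0.0.

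**Figure D2:**
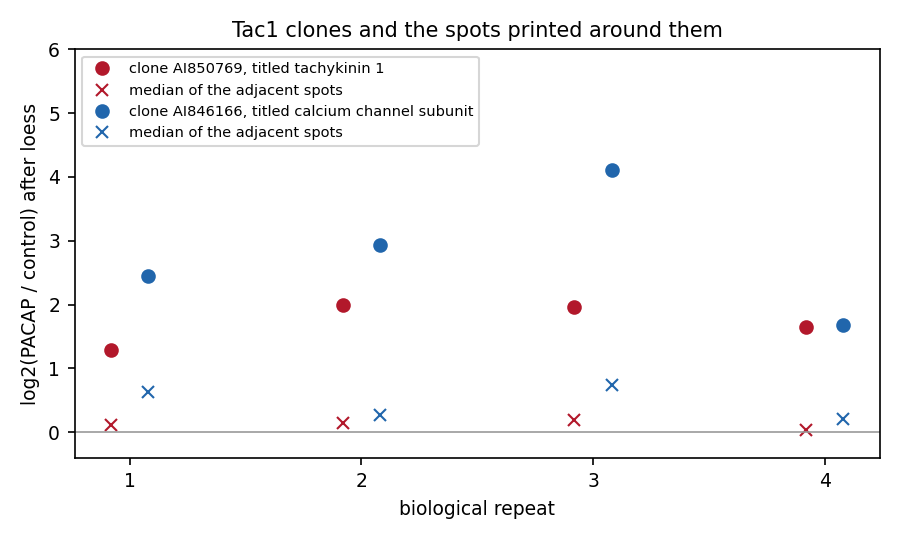
Loess-normalised log2 ratio of PACAP over control for both Tac1 clones by repeat (circles), with the median log2 ratio of the spots printed directly around each (crosses). The circles lie between 1.29 and 4.11 and the crosses between 0.04 and 0.74.

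The spots printed around the clones had lower ratios. The median log2 ratio of the 7 or 8 adjacent library spots was 0.11, 0.15, 0.19 and 0.04 on repeats 1 to 4 around AI850769. Around AI846166 it was 0.64, 0.27, 0.74 and 0.21, and the highest ratio among its neighbours reached 2.52 on repeat 3, against 4.11 for the clone itself. The highest neighbour of AI850769 had 0.97 to 1.33 on the 4 arrays. The ratio of each clone exceeded that of every adjacent spot on all 4 arrays. Since Tac1 was chosen by its high ratio, nothing is read from this. Over the whole print block of AI846166 the median was -0.002, 0.29, -0.06 and 0.16 on repeats 1 to 4. For the block of AI850769 it was -0.05, -0.01, 0.35 and 0.18. The spots next to AI846166 were thus above their block on repeats 1 and 3, and the part of print position was not tested. With 1 loess curve for each print block, the means were 1.52 ± 0.29 for AI850769 and 2.70 ± 1.06 for AI846166 (SD, n = 4).

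Expressed as levels in each channel, after the brightness distributions of the arrays had been equalised, the PACAP and control values did not overlap for either clone. AI850769 had normalised log2 PACAP levels of 8.36, 9.07, 9.21 and 8.50 on repeats 1 to 4, and control levels of 7.07, 7.08, 7.24 and 6.86. The lowest PACAP level, 8.36, thus lay above the highest control level, 7.24. AI846166 had PACAP levels of 8.22, 9.48, 7.79 and 7.91 and control levels of 5.78, 6.55, 3.69 and 6.23, again without overlap. Among tested spots present on all 4 arrays, 2.34% had PACAP levels above all control levels. The control level varied less than the PACAP level for AI850769 (SD 0.16 against 0.42, n = 4) and more for AI846166 (SD 1.29 against 0.78, n = 4). For both clones the control signal was above 2 background SD only on repeat 4. The control level of 3.69 for AI846166 came from a signal at the floor. The gaps and the control SDs thus rest largely on control signals that were not measurable, and nothing is read from them. In RNA from whole cultures, more cells with the transcript and more transcript per cell cannot be told apart.

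By rank, AI846166 had the highest mean log2 ratio of all 35110 tested clones and AI850769 the 15th highest. On single arrays AI846166 ranked 11, 8, 5 and 144 from the top on repeats 1 to 4, out of 34087 to 35136 tested spots, and AI850769 ranked 180, 193, 549 and 151. The spread over arrays was also different: 80.1% of tested clones had a larger SD than AI850769, and 12.3% a larger SD than AI846166. Over the 3699 tested clones whose control signal was above background on exactly 1 array, the median of the mean log2 ratio was -0.003, with 5th and 95th percentiles of -0.77 and 0.74. These clones were matched to Tac1 by that number of arrays and not by their control signal, and the part of dim control signals in the Tac1 ratios was not tested. The rank moved with several settings. With the floor at 2 background SD AI846166 ranked 170 and AI850769 ranked 164, and with the local background added back they ranked 50 and 251. Under median centring they ranked 2 and 176, and by the deposited log2 ratios 4 and 129. AI846166 also ranked 2 without repeat 4 and without the filter on dim clones, where AI850769 ranked 28 and 16.

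The authors' deposited table also holds a ratio per spot, divided by 1 calibration factor per array, with an upper limit for each array at a stated confidence of 99%. For AI846166 the calibrated ratio in the authors' deposited table was 3.78, 4.92, 139.5 and 3.40 on repeats 1 to 4, above the upper limits of 2.01, 4.73, 3.96 and 1.82 on every array. The 139.5 on repeat 3 rests on a control signal at the floor, and the control signals on repeats 1 and 2 were also not above 2 background SD. For AI850769 the authors' deposited table gave 1.92, 2.63, 2.30 and 3.28, above the limit on repeat 4 only. Of 36096 library spots, 4 were above the upper limit of the authors' deposited table on all 4 arrays: AI846166, 2 spots of the neuronal kinase Dclk1 and a spot of the tRNA dihydrouridine synthase Dus1l. Tac1 was chosen by its ratio on these arrays, so the place of AI846166 among the 4 is no separate result. The other names were noted after their values were seen. The deposited quality score of AI846166 was 0.9, 1.0, 0.8 and 0.0 on repeats 1 to 4, and that of AI850769 was 1.0, 1.0, 1.0 and 0.6, so the score was lowest on repeat 4 for both. Spot areas were 90 to 126 pixels and 104 to 128 pixels.

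The deposited series table gives log2 ratios in which the background was subtracted a second time. For AI850769 those values were 7.78, 7.93, 7.17 and 2.98 on repeats 1 to 4, and for AI846166 they were 7.69, 8.32, 6.63 and 7.09. Relative to the median of each array, AI850769 stood 3.11, 2.41, 2.92 and 3.36 higher and AI846166 3.02, 2.80, 2.38 and 7.47 higher. The control signals of both clones on repeats 1 to 3, and of AI846166 on repeat 4, were below the local background value, so that the second subtraction left them at the floor. Those deposited values then carry the PACAP signal alone.

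**Figure D3:**
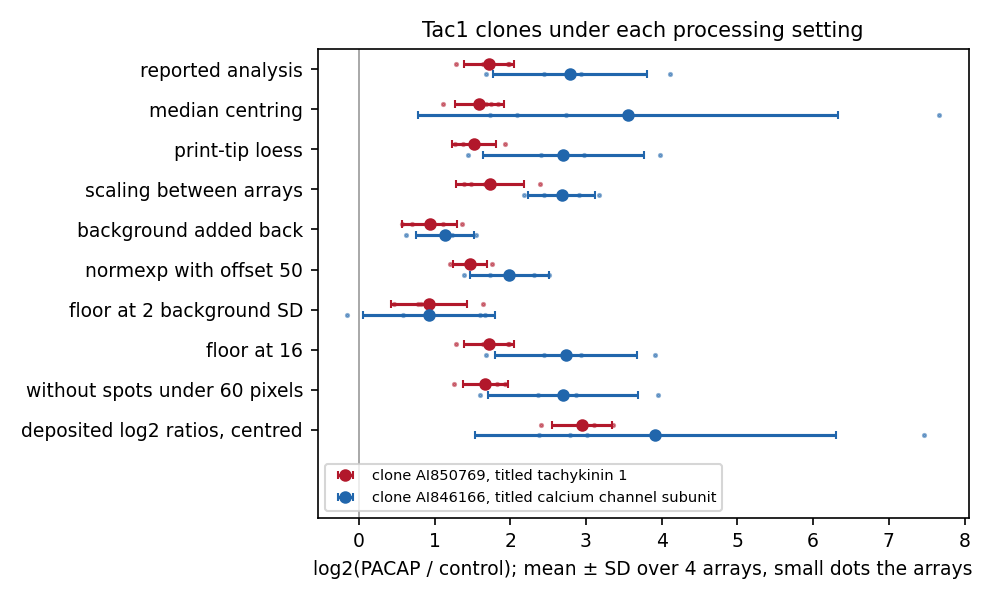
Mean log2 ratio of PACAP over control ± SD over 4 arrays for both Tac1 clones under the reported analysis and each processing alternative, with the arrays as small dots. All means lie above 0, the lowest is 0.93 with a floor at 2 background SD, and the only array below 0 is repeat 3 of AI846166 under that floor.

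Because the title of AI846166 names a calcium channel subunit, the other clones of that kind were examined, after its value had been seen. The alpha-1 subunits of voltage-gated calcium channels form the pore through which calcium enters to trigger secretion, and the other subunits are auxiliary. Of 46 other tested clones with a calcium channel title or a Cacn symbol, 22 had a mean log2 ratio above 0. Of these 46 clones 0 were higher on all 4 arrays, against 9.59% of all tested clones. Some of the 46, among them the clone of lowest mean, were below 0 on all 4 arrays. Their number was not computed, so it is not compared with the 8.25% of all tested clones. The means of the 46 ran from -1.30 to 0.63, with a median of -0.05, against 2.79 for AI846166. Title and symbol conflict at both ends: the lowest has the symbol Flt1, and the highest is titled fatty acid desaturase 2.

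Repeat 4 stood apart from the other arrays in channel brightness: 98.3% of library spots were above background in its control channel, against 46.0 to 80.9% on repeats 1 to 3. Median signal was 102.8 to 415.6 scanner units in Cy5 and 130.8 to 579.3 in Cy3. Without repeat 4 the mean was 1.75 ± 0.40 (SD, n = 3) for AI850769 and 3.16 ± 0.86 (SD, n = 3) for AI846166. The part of the array's brightness in the Tac1 ratios was not tested. Of 12 chromaffin markers 6 were measured, and the control signal of Th, Chga, Chgb, Ddc and Gata3 was above background on all 4 arrays, while that of Slc18a1 was so on 1. Marker lists of 6 other cell types, from adrenal cortex to erythrocytes, held 0 called genes. Limma called 0 of all 35110 tested clones, so nothing is read from that count. The medians of these lists ran from -0.31 to 0.11, over 2 to 7 measured genes. The lowest was that of the erythrocyte list, with 2 measured genes, and its Hbb-b1 clone is titled myosin Vb. The chromaffin list had a median of -0.23. These medians moved with the scaling: under median centring and from the deposited log2 ratios the chromaffin median was 0.62 and -2.45, the fibroblast median (-0.17) was 0.53 and -2.15, and the endothelial median (-0.003) was 0.06 and 0.67.

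The other tachykinin precursors, Tac2 and Tac4, had mean log2 ratios of -0.38 and 0.28, and neither passed the test. Limma called 0 of 35110 tested clones at an adjusted p below 0.05 (0.0%), while 3647 had an unadjusted p below 0.05, 1378 of them higher with PACAP. Tac2, the precursor of neurokinin B, had log2 ratios of -0.02, -1.80, 0.25 and 0.04 on repeats 1 to 4, a mean of -0.38 ± 0.95 (SD, n = 4; limma adjusted p = 0.692). Tac4, the precursor of hemokinin, had 0.26, 0.52, 0.51 and -0.19, a mean of 0.28 ± 0.33 (SD, n = 4; limma adjusted p = 0.671), and -0.03 under median centring. Without repeat 2 the Tac2 values lay between -0.02 and 0.25, and the mean of Tac2 ran from -0.67 to 0.03 over the settings tried. The tachykinin receptors Tacr1, Tacr2 and Tacr3 were not measured. The median over Tac2 and Tac4 was -0.05, against -0.01 over all tested clones.

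Among 10 measured genes of neuropeptide processing, 6 had a mean above 0 and 4 below, with a median of 0.05 (-0.99 from the deposited log2 ratios). The median over all tested clones was -0.01. The share of all tested clones with a mean above 0 was not computed, so nothing is read from such counts in any list. Limma called 0 of the 10 in either direction. Scg5, the chaperone of a prohormone convertase, had 0.35, 0.31, 0.50 and 0.40 on repeats 1 to 4, a mean of 0.39 ± 0.08 (SD, n = 4; limma adjusted p = 0.545), and its 1 other probe had a mean of 0.001. Pam, the enzyme that amidates peptides such as substance P, had -0.43, -0.73, -0.18 and -0.17, a mean of -0.38 ± 0.27 (SD, n = 4; limma adjusted p = 0.569), but 0.13 from the deposited log2 ratios. Scg5 lay above 0 and Pam below it on all 4 arrays, and neither passed. Pcsk5, a proprotein convertase, had -0.45 ± 0.29 (SD, n = 3), and Qpct, which forms pyroglutamate at peptide ends, had -0.49 ± 0.88 (SD, n = 4).

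Of 11 measured genes on the list of peptidases that cleave substance P, 6 had a mean above 0 and 5 below. Their median was 0.002, and limma called 0. The means ran from -0.52 for Bche to 0.46 for Mmel1, a neprilysin-like peptidase. Bche is butyrylcholinesterase, an esterase by name, which the list had counted as a peptidase. From the deposited log2 ratios Bche had -3.87 and Mmel1 -0.12. Ece1, endothelin converting enzyme, had -0.43 ± 0.49 (SD, n = 4) but 0.43 from the deposited log2 ratios, with both of its other probes above 0, and Anpep, an aminopeptidase, had -0.45 ± 1.13 (SD, n = 4). Neprilysin itself, Mme, named for its role after its value was seen, had -0.07 ± 0.39 (SD, n = 4).

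Of 17 measured genes of tachykinin receptor signalling, 6 had a mean above 0 and 11 below, with a median of -0.17, which was 0.13 from the deposited log2 ratios. Limma called 0. Gna11, a Gq class G protein by symbol whose clone title names a nematode protein, had -1.57, -3.47 and -4.11 on repeats 1 to 3 and no spot on repeat 4, a mean of -3.05 ± 1.32 (SD, n = 3; limma adjusted p = 0.454). The receptor kinase Grk6 had -1.90, -2.23, -3.38 and 0.98, a mean of -1.63 ± 1.85 (SD, n = 4; limma adjusted p = 0.454). Repeat 4 of Grk6 was above 0 and the other 3 arrays were below it. Gnaq, the Gq protein itself, had -0.37 ± 0.28 and the phospholipase Plcb4 had -0.54 ± 0.33 (SD, n = 4), both below 0 on all 4 arrays, although Gnaq had 0.20 under median centring. Of 3 other Gnaq probes 2 were above 0, as was the 1 other Plcb4 probe.

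The list for the Tac1 promoter held transcription factors with reported sites there, and coactivators. Of its 18 measured genes, 14 had a mean above 0 and 4 below, with a median of 0.21 (0.20 to 0.48 under the other scalings). The median over all tested clones was -0.01, and nothing is read from the count of 14. Limma called 0. Crem, a cyclic AMP response factor, had 1.66, 1.77, 1.29 and 1.02 on repeats 1 to 4, a mean of 1.44 ± 0.35 (SD, n = 4; limma adjusted p = 0.454), and its other probe had 1.64 ± 0.43 (SD, n = 4). Yy1, a zinc finger factor, had 0.65 ± 0.87 (-0.07 from the deposited log2 ratios) with 1 other probe below 0, and the CREB coactivator Crtc3 had 0.71 ± 1.14 (-0.27 at the lowest setting; SD, n = 4). Tcf3, an E-box factor, had 0.39 ± 0.18 (SD, n = 4), above 0 on all 4 arrays but -1.37 from the deposited log2 ratios, with both other probes below 0. Of factors named for their role after their values were seen, Creb1, the cyclic AMP response element binding protein, had 0.24 ± 0.23 and the neuron-restrictive silencer factor Rest 0.30 ± 0.84 (SD, n = 4).

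**Figure D4:**
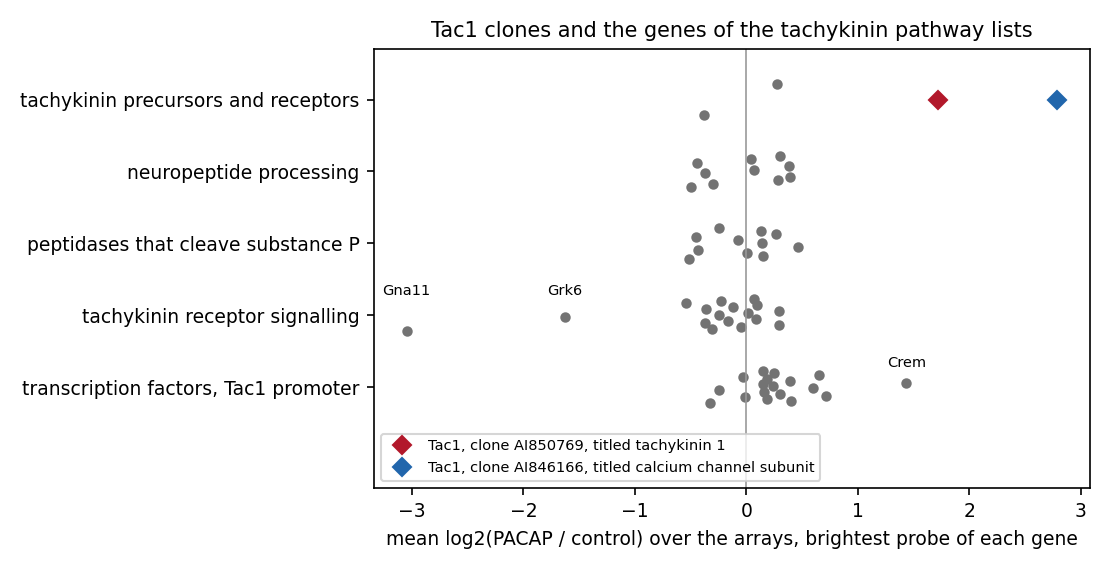
Mean log2 ratio of PACAP over control for both Tac1 clones (diamonds) and for the brightest probe of each measured gene of the 5 tachykinin pathway lists (circles). Tac1 lies at 1.72 and 2.79, and among the other genes only Crem, Grk6 and Gna11 lie beyond 1 in either direction.

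The likeness of other genes to Tac1 was measured as the Euclidean distance between the 4 log2 ratios of a probe and those of AI850769, the brighter Tac1 clone, over 21046 probes with 1 gene symbol. The nearest genes were Dclk1 (distance 0.64), Crem (0.65), the cytokine receptor kinase Jak1 (0.71), Cfap36 (0.78), the translation elongation factor Eef1g (0.84) and Dus1l (0.91), against a median distance of 3.53. The Dclk1 probe had 1.11, 2.07, 2.58 and 1.69 on repeats 1 to 4. The Crem probe had 1.55, 2.14, 1.78 and 1.10. These probes were picked for closeness to AI850769, so their array pattern is no separate result.

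Other probes of the same genes did not always share the pattern. All 5 other probes of Eef1g had means between -0.33 and 0.10, and the other Dus1l probe had 0.22. Other probes of Crem (1.44), Cfap36 (0.89), Jak1 (1.62) and Dclk1 (1.99) were higher on all 4 arrays, while a further Jak1 probe had -1.15 and a further Dclk1 probe -0.19. The other Tac1 clone, AI846166, lay at a distance of 2.61 from AI850769, and 2228 probes were nearer than it was.

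**Figure D5:**
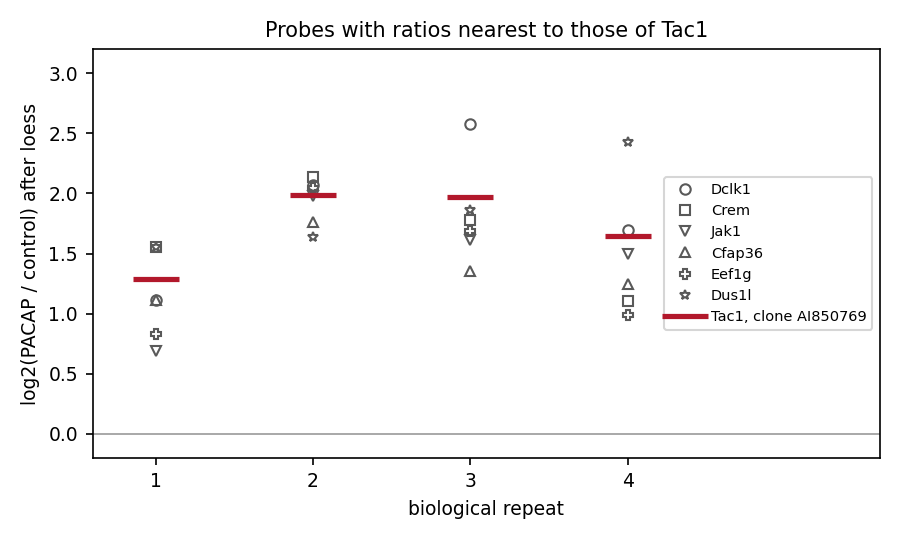
Loess-normalised log2 ratios of PACAP over control on 4 repeats for the Tac1 clone AI850769 (horizontal bars) and the 6 genes with the nearest ratios (symbols). Symbols were chosen for their closeness to the bars, and lie between 0.69 and 2.58.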

How the data were processed

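The authors' scanner tables hold linear intensity per spot and channel, per the file headers, with the local background already taken off the deposited mean, as checked from total intensities. They also hold, per the file headers, a calibrated ratio with limits at a confidence in percent, a quality score from 0 to 1 and the spot area. For the image program the name is not given in the sources used. The deposited series table holds log2 ratios, whose scale and direction were found by recomputing them from the spots. After a floor of 1, the log2 ratio of Cy5 over Cy3 was normalised with 1 loess curve per array (limma 3.58.1 under R 4.3.3). Blanks, spots from other plates and spots without area had weight 0. The design named normexp for uncorrected signals; since these were corrected, it became an alternative. Spots of 1 clone were averaged, and 35110 clones passed the filter given in the report and were tested with limma (lmFit and eBayes, intercept only, 2-sided, Benjamini-Hochberg). Channel levels come from Aquantile normalisation. Annotation was joined by plate position where the median difference was under 0.1 log2 units (35695 of 35873 entries). Named genes are the tachykinin precursors, up to 4 genes of smallest p in each other list (further members are named after their values were seen) and the 6 nearest to Tac1. The members and lists were chosen with earlier results of these data known. The fit was tested on simulated data. Tables used pandas 2.3.3 and numpy 2.4.6 under Python 3.11.15, and figures matplotlib 3.10.9.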

Additional observations from a re-analysis of the deposited data

Results flagged for a closer look

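Of 45 values examined on 4 arrays, 3 had an array far from the other 3, a pattern that chance gives in about 1 of 20 groups. The log2 ratio of Tac2 was -1.80 on repeat 2, against -0.02 to 0.25 on the others. The median log2 ratio of the adrenal cortex markers was -0.52 on repeat 2, against 0.03 to 0.09. In Cy5, 91.9% of library spots were above background on repeat 4, whereas the range over repeats 1 to 3 was 97.6 to 98.4%.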

How the results depend on the processing

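Both Tac1 clones had a mean log2 ratio above 0 under all 9 processing alternatives and with each array left out. The mean moved by more than its SD in 3 settings. It was 0.94 for AI850769 and 1.14 for AI846166 with the local background added back, 0.93 and 0.93 with a floor at 2 background SD, and 2.95 and 3.91 from the deposited log2 ratios. Leaving out 1 array gave 1.63 to 1.87 for AI850769 and 2.35 to 3.16 for AI846166. A filter on both channels left neither clone in the test. The count of clones past the adjusted threshold, 0 in the reported analysis, was 15 with the background added back, 461 from the deposited log2 ratios (0 higher) and 3 with trend and robust moderation. In the first and second of these 1 list gene was called, Gna11, as lower, at -1.91 and -7.68; the cause was not tested. The unadjusted count of 3647 became 6099 under median centring, 2345 with the filter on both channels, 2144 without repeat 2 and 1834 without repeat 3. Its higher part, 1378, was 443 of 4312 from the deposited log2 ratios and 2454 of 5018 with the background added back. Limits: the control signal of both Tac1 clones was not well above background on repeats 1 to 3, so the size of the ratio is uncertain there, and 4 arrays limit the precision. The fit was paired by repeat, because both channels of a repeat share 1 array and each ratio compares its treated and control RNA.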

Other observations

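Of 3325 genes with exactly 2 tested probes, 67 (2.02%) had both probes higher with PACAP on all 4 arrays. Tac1, chosen by these ratios, was among them with means of 1.72 and 2.79, but with a floor at 2 background SD both were 0.93, so its place among these genes is not given. Of the others, ranked by the lower of both means, the highest were Crem (1.44 and 1.64), the membrane protein Tm4sf1 (1.18 and 1.39), Ccdc153 (1.05 and 1.23) and the neuronal calcium sensor Vsnl1 (0.98 and 1.43). These genes were ranked after their values were seen and are given as a description.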
